A study of Mus musculus with 16 samples.

Results

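The machinery and receptors of autophagy were followed as 42 listed mouse genes, found by symbol among the 20622 genes of the total RNA tables, of which 15235 also had ribosome footprint counts. By role the list holds 5 genes of the initiation complex, 6 of the phosphatidylinositol 3-kinase (PI3K) complex, 6 of ATG9 vesicles, lipid transfer and the WIPI proteins, 10 of the conjugation systems, 5 of the ATG8 family, 5 cargo receptors, 4 mitophagy genes and 1 tethering factor. Footprints (ribosome-protected fragments, RPFs) and total RNA of the cytoplasm had been sequenced from KMNTC and KM4A2cr cells, with 4 replicates of each line and 16 libraries in all, and both kinds of library of a replicate came from the same lysate. Both lines derive from KM cells grown from lung tumours of a mouse with LSL-MYC on both *Rosa26* alleles, in which Cre delivered by adenovirus under the surfactant protein C (SPC) promoter had switched on human MYC. KMNTC cells carry Cas9 and a non-targeting guide, KM4A2cr cells carry Cas9 and a guide against *Eif4a2*, which encodes the RNA helicase eIF4A2, and the latter are a pool of 4 clones selected for lack of the protein on western blots. All cells were untreated and were harvested close to confluence. The 4 replicates are independent experiments on different days with 1 pair of lines from 1 tumour-derived culture, so the comparison describes these lines.

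Autophagy encloses cytoplasm in a double membrane, the autophagosome, which fuses with the lysosome. The ULK complex starts the process, a PI3K complex marks the growing membrane with phosphatidylinositol 3-phosphate, ATG9 vesicles and the ATG2 proteins supply lipid, and ubiquitin-like enzymes attach the ATG8 proteins (LC3 and GABARAP families) to the membrane, where receptors such as p62 bind to bring in cargo. Several proteins of the pathway are themselves degraded by it, so the amounts of protein need not follow the footprints or mRNAs measured here.

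RPF libraries held between 4512403 and 9621848 counts in coding sequences and total RNA libraries between 5350920 and 9312624. *Eif4a2* footprints were lower in KM4A2cr cells in 4 of 4 replicate pairs, with a log2 fold change of -0.49 (SE 0.15, adjusted p = 0.0941 by edgeR), although counts remained in every library (51.0 to 346 CPM, the counts scaled to library size). Replicate 4 stood apart in both lines, with the lowest depth, and results are therefore also given without it. Without it far more of all genes passed, 33.4% in RPFs (10.3% with it) and 29.8% in total RNA (6.13% with it). Without replicate 1, 2 or 3 instead, no autophagy gene passed, so the smaller p-values without replicate 4 are not separate support. Epithelial markers (*Epcam*, *Cdh1* and 3 keratins) summed to 3911 to 5714 TPM, a transcript abundance corrected for length. RPFs of *Epcam* (log2 fold change 0.51, adjusted p = 0.0770) and *Cdh1* (0.44, adjusted p = 0.0845, both by edgeR) were higher in KM4A2cr cells. Their total RNA did not pass (adjusted p = 0.101 and 0.220 by edgeR), nor did RPFs of *Krt8* (-0.05), *Krt18* (-0.10) and *Krt19* (0.13). Of the 7 alveolar type II markers, the surfactant genes *Sftpc* and *Sftpb* were listed at 0 in every total RNA library, while *Abca3* had 27.6 to 47.6 TPM and was higher in KM4A2cr cells by 0.54 in RPFs (adjusted p = 0.0501) and 0.62 in total RNA (adjusted p = 0.0240, both by edgeR). *Lamp3* total RNA did not pass (log2 fold change 0.11, adjusted p = 0.896 by edgeR). *Sftpd*, *Sftpa1* and *Nkx2-1* were not tested in either kind of library, and *Sftpd* footprints were lower in KM4A2cr cells in each pair (-0.19, -0.26, -0.79 and -1.37 on the log2 scale). The part of these marker differences in the values of the autophagy genes was not tested.

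In RPFs, 41 of the 42 autophagy genes had enough counts to be tested, and 4 of them differed between the lines at an adjusted p under 0.1 (edgeR quasi-likelihood test, replicate pairs as a block, adjusted over all 10291 genes). *Atg9a* and *Bnip3* were higher and *Wdr45* and *Gabarapl1* were lower in KM4A2cr cells. These 4 genes are 9.76% of the members tested, where 10.3% of all genes passed, 6.6% higher and 3.72% lower. In total RNA only *Atg9a* passed, 1 of 42 members (2.38%) beside 6.13% of all genes, 4.35% higher and 1.78% lower. For translational efficiency, the change of footprints relative to mRNA, 0 of 41 members passed by edgeR and 0 by DESeq2. Of all genes 2.91% passed by edgeR, 1.87% higher and 1.04% lower, and 1.19% by DESeq2. At an unadjusted p under 0.05 by edgeR were 6 of the 41 members and 1410 of all 9989 genes. The median log2 fold change of the members was -0.05 in RPFs, -0.06 in total RNA and -0.03 in translational efficiency, and that of all genes was -0.01, 0.01 and -0.02. The share of autophagy genes that differed between KMNTC and KM4A2cr cells was thus close to that of all genes in RPFs. In total RNA it rests on 1 gene, too few to tell it from the share of all genes. The adjusted p-values of the 4 genes in RPFs by edgeR lay between 0.0573 and 0.0861, so that none passed a threshold of 0.05, which 4.26% of all genes did. Without the replicate block no member passed in either kind of library, and 0 of all genes did. No member had KMNTC and KM4A2cr values that did not overlap, 0 of 41 in RPFs and 0 of 42 in total RNA, where 0.981% of all genes lay wholly above and 1.15% wholly below in RPFs and 0.938% and 1.03% in total RNA.

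**Figure D1:**
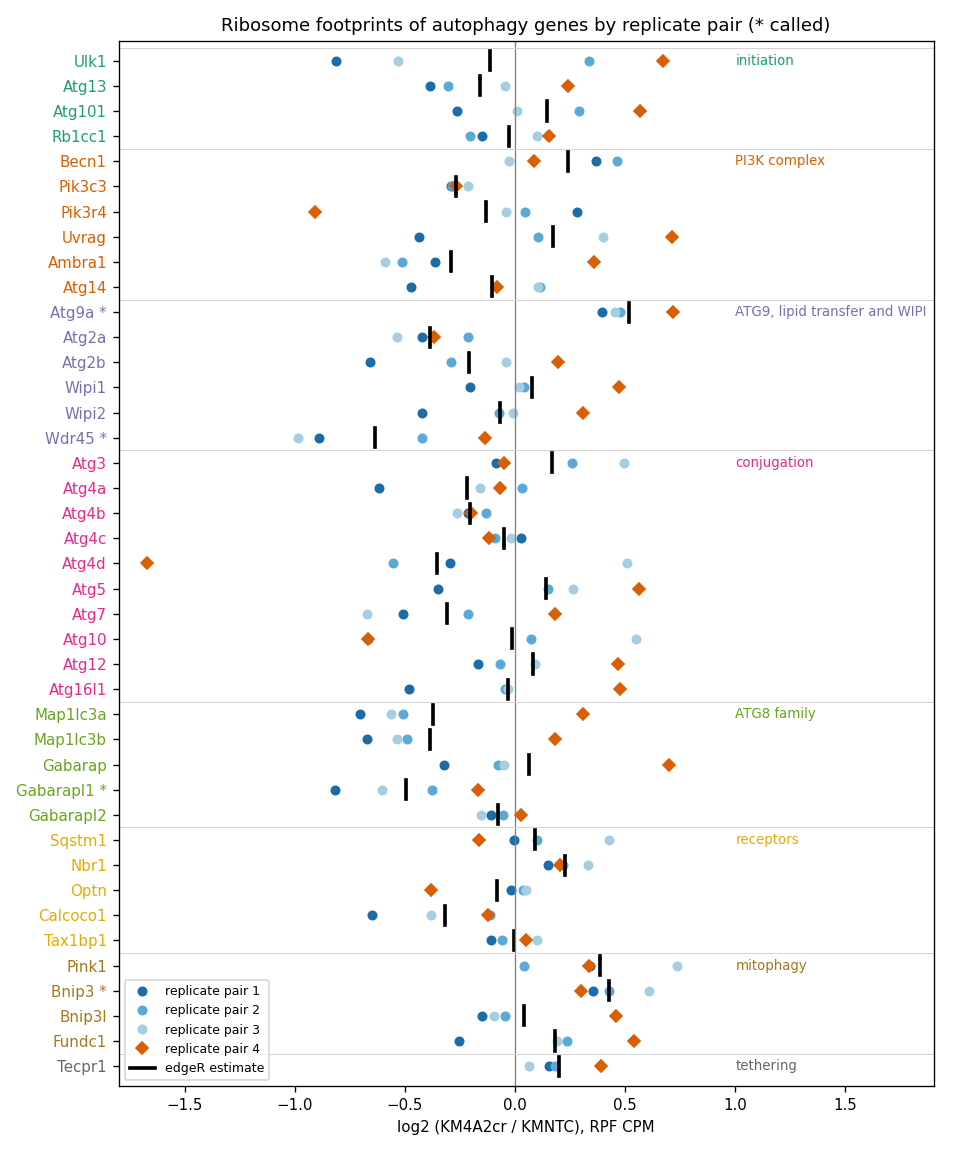
Log2 ratio of KM4A2cr to KMNTC RPF CPM (x axis) for the 41 autophagy genes tested (y axis, grouped by role), with circles for replicate pairs 1 to 3, an orange diamond for pair 4 and a black bar for the edgeR estimate. The 4 genes with a star passed the threshold, and pair 4 often lies to the right of the other pairs, as for *Gabarap* and *Map1lc3a*.

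The level of each mRNA can be compared between genes in TPM, which the authors' pipeline divides by transcript length, whereas footprint counts were not corrected for the length of the coding sequence and are compared here only between libraries. In KMNTC cells, *Map1lc3b* (LC3B) was the most abundant member at 211 ± 31.5 TPM (SD, n = 4), followed by *Sqstm1*, encoding the receptor p62, at 199 ± 38.8 TPM. *Gabarap* had 150 ± 31.5 TPM, the mitophagy receptor *Bnip3l* (NIX) 128 ± 14.6 TPM and the receptor *Tax1bp1* 119 ± 22.0 TPM. *Fundc1*, a receptor on the outer mitochondrial membrane, had 103 ± 8.22 TPM. At the other end were *Ulk1* (3.20 ± 0.558 TPM), the protease gene *Atg4d* (2.38 ± 0.913 TPM) and *Atg2a* (2.18 ± 0.999 TPM). The 6 highest means were thus those of ATG8 genes and of cargo and mitophagy receptors. *Map1lc3b* and *Sqstm1*, and likewise *Bnip3l* and *Tax1bp1*, had means that differed by less than their SDs. In KM4A2cr cells *Map1lc3b* had 185 ± 30.5 TPM and *Sqstm1* 215 ± 47.1 TPM, which reversed their order within the same spread.

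**Figure D2:**
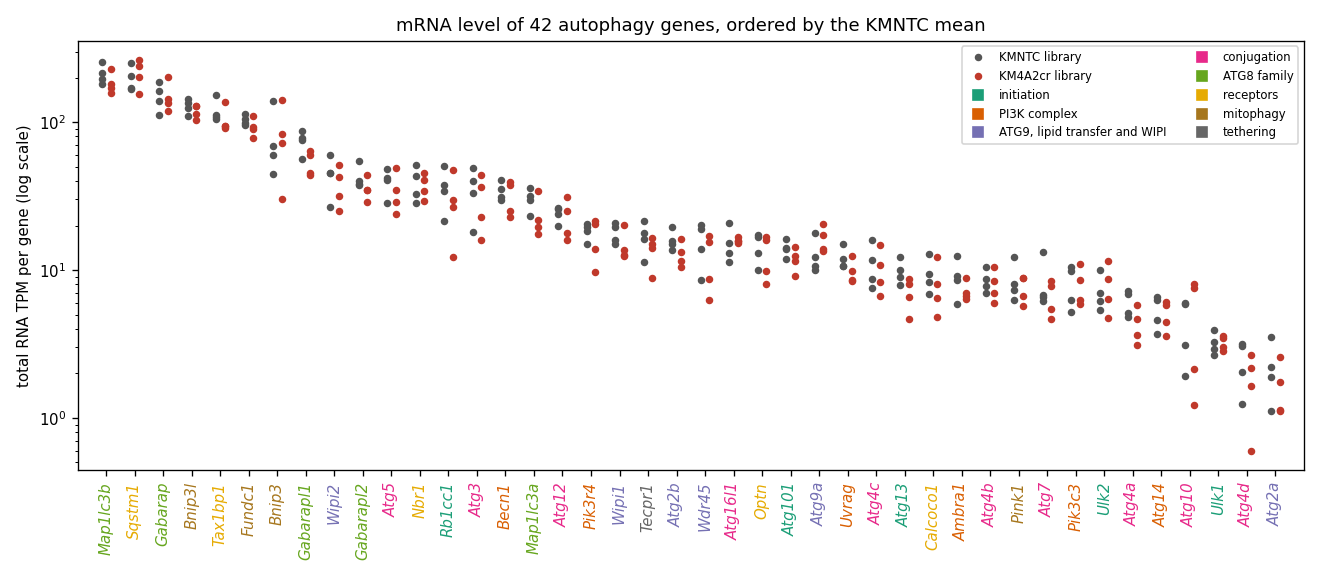
Total RNA TPM per gene (y axis, log scale) of the 42 autophagy genes (x axis, ordered by the KMNTC mean and coloured by role) in each KMNTC library (grey) and KM4A2cr library (red). Means in KMNTC run from 211 TPM for *Map1lc3b* to 2.18 TPM for *Atg2a*, and the red and grey points overlap for each gene.

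Of the initiation complex, which senses nutrient state through mTORC1 and AMPK, none of the 4 genes tested in RPFs passed and none of 5 in total RNA. *Ulk1* (ENSMUSG00000029512.12), the kinase at its centre, had 12.5, 8.24, 9.86 and 9.02 RPF CPM in KMNTC replicates 1 to 4 and 7.00, 10.5, 6.73 and 14.5 in KM4A2cr. It was lower in KM4A2cr cells in pairs 1 and 3 and higher in pairs 2 and 4 (log2 fold change -0.11, SE 0.25, adjusted p = 0.824 by edgeR). Its paralogue *Ulk2* (ENSMUSG00000004798.15) had only 26 footprints over the 4 KMNTC libraries and 42 over the KM4A2cr libraries and was not tested in RPFs. Its mRNA was well covered, at 17.0, 26.8, 22.3 and 24.0 total RNA CPM in KMNTC and 20.9, 33.1, 29.9 and 24.9 in KM4A2cr. The *Ulk2* mRNA was higher in KM4A2cr cells in 4 of 4 pairs, by 0.28 on the log2 scale (SE 0.13, adjusted p = 0.290 by edgeR), which did not pass. The scaffolds *Atg13* and *Rb1cc1* (FIP200) and the HORMA-domain protein gene *Atg101* had RPF log2 fold changes of -0.16, -0.03 and 0.15. *Atg13* mRNA was lower in 4 of 4 pairs (log2 fold change -0.32, SE 0.15, adjusted p = 0.299 by edgeR). *Atg13* lies on chromosome 2, as do *Ambra1*, *Map1lc3a* and *Optn*, and 10.2% of the 833 genes tested on that chromosome were lower in RPFs, beside 3.72% of all genes. The part of the chromosome in the values of these 4 members was not tested.

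None of the 6 genes of the PI3K complex passed in either kind of library. *Becn1* (ENSMUSG00000035086.14), encoding the scaffold Beclin 1, had 7.15, 6.25, 10.0 and 7.34 RPF CPM in KMNTC and 9.30, 8.73, 9.82 and 7.81 in KM4A2cr, which was higher in pairs 1, 2 and 4 (log2 fold change 0.24, SE 0.17, adjusted p = 0.424 by edgeR). Its mRNA stood at 35.9, 42.9, 39.1 and 40.8 total RNA CPM in KMNTC and 31.6, 44.0, 47.1 and 42.2 in KM4A2cr, and the ranges overlapped. For *Pik3c3*, the lipid kinase VPS34, footprints and mRNA pointed in opposite directions, with log2 fold changes of -0.27 in RPFs (below 0 in 4 of 4 pairs, adjusted p = 0.256 by edgeR) and 0.18 in total RNA (adjusted p = 0.604 by edgeR). The difference between them, -0.42 (SE 0.17), was below 0 in 4 of 4 pairs and did not pass (adjusted p = 0.220 by edgeR). The kinase's partner *Pik3r4* (VPS15) and the complex-specific subunits *Atg14* and *Uvrag* had RPF log2 fold changes of -0.13, -0.11 and 0.17. *Ambra1*, which links the complex to ULK1, had one of -0.29, with pairs 1 to 3 below 0 and pair 4 above.

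The genes for membrane supply held the largest RPF changes of the list in both directions. *Atg9a* (ENSMUSG00000033124.17) encodes the scramblase of the vesicles that seed the autophagosome. Its RPF CPM was 20.8, 13.9, 19.3 and 56.2 in KMNTC and 27.4, 19.4, 26.5 and 92.6 in KM4A2cr, and its total RNA CPM was 27.2, 20.1, 22.4 and 48.7 in KMNTC and 39.9, 27.7, 32.6 and 74.2 in KM4A2cr. Replicate 4 was far above the others in both lines, and within every pair the KM4A2cr library was the higher. The log2 fold change was 0.52 in RPFs (SE 0.13, adjusted p = 0.0573) and 0.54 in total RNA (SE 0.12, adjusted p = 0.0403, both by edgeR). The change of translational efficiency was -0.02 (SE 0.13). Without replicate 4 the changes were 0.44 (adjusted p = 0.0246) and 0.51 (adjusted p = 0.00300, both by edgeR).

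*Wdr45* (ENSMUSG00000039382.13), encoding the phosphoinositide-binding protein WIPI4, which holds ATG2 at the membrane, fell. It had 33.3, 27.5, 23.3 and 17.2 RPF CPM in KMNTC and 17.9, 20.4, 11.6 and 15.6 in KM4A2cr. KM4A2cr was lower in 4 of 4 pairs, by 0.89, 0.42 and 0.98 on the log2 scale in pairs 1 to 3 but by only 0.14 in pair 4, where the KMNTC library was itself the lowest of its line. The log2 fold change in RPFs was -0.64 (SE 0.17, adjusted p = 0.0692 by edgeR) and -0.76 without replicate 4 (adjusted p = 0.00276 by edgeR). Total RNA of *Wdr45* stood at 14.0, 11.2, 10.3 and 7.47 CPM in KMNTC and 12.3, 10.1, 6.82 and 6.91 in KM4A2cr. It too was lower in 4 of 4 pairs, but the change of -0.26 did not pass (adjusted p = 0.453 by edgeR), nor did the difference between footprints and mRNA of -0.40 (SE 0.17, adjusted p = 0.283 by edgeR). The lipid transfer protein gene *Atg2a*, whose product WIPI4 binds, had 37.3, 33.3, 28.4 and 29.0 RPF CPM in KMNTC and 27.8, 28.7, 19.5 and 22.3 in KM4A2cr. It was lower in 4 of 4 pairs and narrowly missed the threshold (log2 fold change -0.39, SE 0.13, adjusted p = 0.115 by edgeR). Its paralogue *Atg2b* had a log2 fold change of -0.21, and *Wipi1* and *Wipi2*, which encode phosphoinositide-binding relatives of WIPI4, had 0.08 and -0.07.

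**Figure D3:**
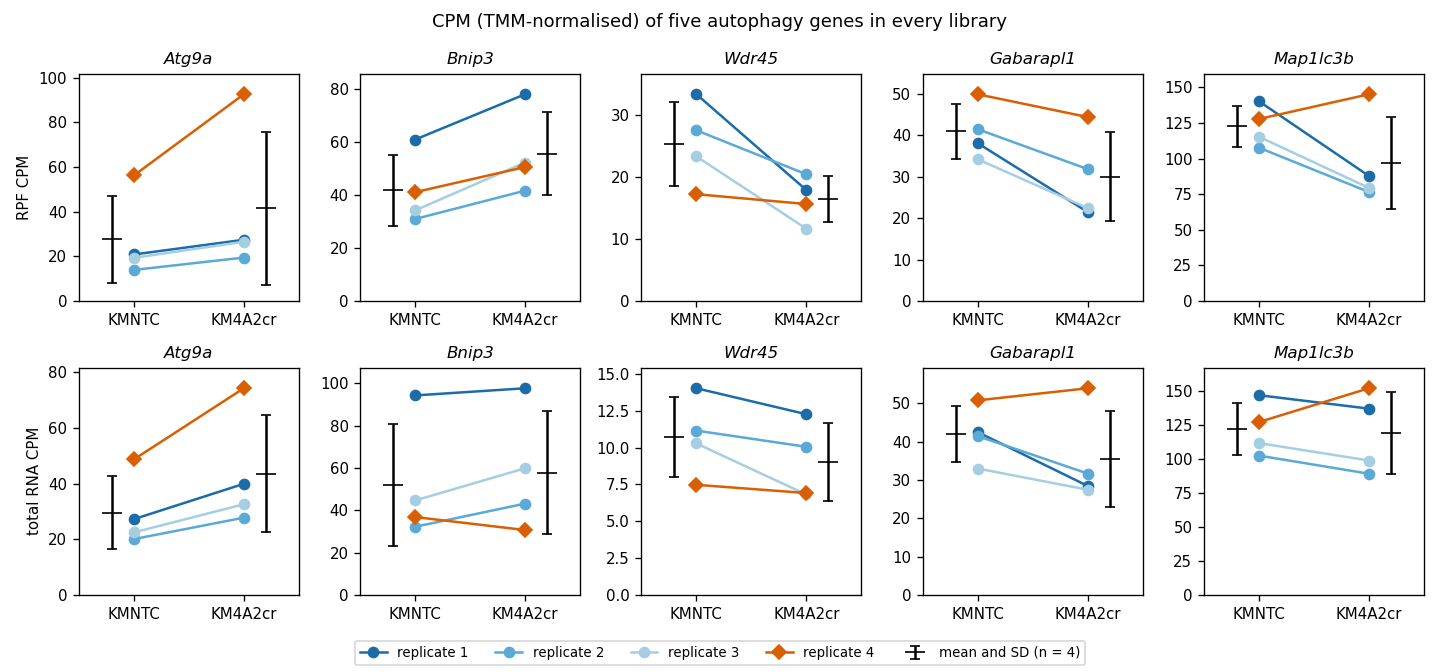
TMM-normalised CPM in RPFs (top row) and total RNA (bottom row) of the 4 genes called in RPFs and of *Map1lc3b*, with lines joining the KMNTC and KM4A2cr library of a replicate and black bars for mean ± SD (n = 4). *Atg9a* rises in each pair in both rows, and replicate 4 (orange) lies above the rest at 56.2 and 92.6 RPF CPM.

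None of the 10 conjugation genes passed in either kind of library, and 3 of the 10 had RPF log2 fold changes above 0. *Atg5* (ENSMUSG00000038160.8), part of the ligase that places ATG8 proteins on lipid, had 24.5, 24.5, 19.4 and 20.1 RPF CPM in KMNTC and 19.2, 27.2, 23.4 and 29.9 in KM4A2cr (log2 fold change 0.14, adjusted p = 0.643 by edgeR). Its total RNA CPM was 51.5, 50.6, 50.7 and 42.7 in KMNTC and 37.1, 54.8, 47.3 and 49.1 in KM4A2cr, with no common direction over the pairs. *Atg7* (ENSMUSG00000030314.17), the activating enzyme of both conjugation systems, had 34.7, 47.9, 43.6 and 48.9 RPF CPM in KMNTC and 24.3, 41.3, 27.2 and 55.5 in KM4A2cr. It was lower in pairs 1 to 3 and higher in pair 4, with a log2 fold change of -0.31 (SE 0.16, adjusted p = 0.287 by edgeR) that became -0.46 without replicate 4 (adjusted p = 0.0200 by edgeR). *Atg7* total RNA stood at 9.40, 16.4, 10.3 and 12.1 CPM in KMNTC and 7.85, 11.5, 9.09 and 20.3 in KM4A2cr, again lower in pairs 1 to 3 only. The conjugating enzymes *Atg3* and *Atg10* had RPF log2 fold changes of 0.17 and -0.02, and *Atg12* and *Atg16l1*, the partners of ATG5, had 0.08 and -0.03. Of the 4 proteases that prime ATG8 proteins, *Atg4a*, *Atg4b*, *Atg4c* and *Atg4d* had -0.22, -0.20, -0.05 and -0.36. *Atg4d* and *Atg10* were thinly covered, with 146 and 147 footprints over the 4 KMNTC libraries and 93 and 133 over the KM4A2cr libraries.

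Over the ATG8 family the RPF changes had a median of -0.37 on the log2 scale (-0.57 without replicate 4 and -0.23 without the replicate block), with 4 of its 5 members below 0 (5 of 5 with library size alone or without replicate 4), and 1 of the 5 passed. *Gabarapl1* (ENSMUSG00000030161.9), the paralogue of *Gabarap* that lies on chromosome 6, had 38.1, 41.5, 34.2 and 49.9 RPF CPM in KMNTC and 21.5, 31.9, 22.4 and 44.4 in KM4A2cr. It fell in 4 of 4 pairs, by 0.82, 0.38, 0.60 and 0.17 on the log2 scale, and its log2 fold change was -0.50 (SE 0.14, adjusted p = 0.0861 by edgeR) or -0.60 without replicate 4 (adjusted p = 0.00524 by edgeR). Its total RNA CPM was 42.5, 41.5, 33.0 and 50.8 in KMNTC and 28.5, 31.7, 27.5 and 53.9 in KM4A2cr. The mRNA was thus lower in pairs 1 to 3 and slightly higher in pair 4 (log2 fold change -0.29, SE 0.14, adjusted p = 0.315 by edgeR), and without replicate 4 it passed, at -0.42 (adjusted p = 0.0111 by edgeR).

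*Map1lc3b* (ENSMUSG00000031812.17), whose product LC3B is the usual marker of autophagosomes, had 140, 108, 115 and 128 RPF CPM in KMNTC and 87.8, 76.5, 79.4 and 145 in KM4A2cr. The KM4A2cr libraries of replicates 1 to 3 lay below each KMNTC library, whereas that of replicate 4 was the highest of the 8. Total RNA was at 147, 102, 111 and 127 CPM in KMNTC and 137, 88.9, 98.7 and 152 in KM4A2cr, below KMNTC in pairs 1 to 3 and above it in pair 4. The log2 fold change was -0.38 in RPFs (SE 0.16, adjusted p = 0.188 by edgeR) and -0.06 in total RNA (SE 0.13, adjusted p = 0.865 by edgeR). Translational efficiency, which compares footprints and mRNA of the same lysate, was lower in 4 of 4 pairs, by 0.57, 0.29, 0.36 and 0.07 on the log2 scale. The fitted change of -0.33 (SE 0.10) had an adjusted p of 0.102 by edgeR, just short of the threshold, and its adjusted p ran from 0.0165 to 1.00 over 13 other ways of processing, of which 4 passed. Without replicate 4 the RPF change was -0.57 (adjusted p = 0.00141) and the change of translational efficiency -0.40 (adjusted p = 0.0165, both by edgeR). That setting leaves out the pair with the opposite RPF direction, and 33.4% of all genes then passed in RPFs and 6.68% in translational efficiency. Without replicate 1, 2 or 3 instead, *Map1lc3b* passed in neither.

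*Map1lc3a* (LC3A) followed *Map1lc3b* in RPFs with a log2 fold change of -0.37 (SE 0.18, adjusted p = 0.249 by edgeR), below 0 in pairs 1 to 3 and above 0 in pair 4. This value is also the family median given above. *Map1lc3a* lies on chromosome 2, where the genes tested had a median RPF change of -0.21, beside -0.01 for all genes. The part of the chromosome in the family median was not tested. *Gabarap* (ENSMUSG00000018567.15) had 102, 100, 90.8 and 171 RPF CPM in KMNTC and 81.3, 95.1, 87.8 and 277 in KM4A2cr. Replicate 4 exceeded the other replicates in both lines, and the log2 fold change of 0.06 (SE 0.17) turned to -0.15 without it (adjusted p = 0.314 by edgeR). *Gabarap* total RNA was at 79.1, 57.4, 55.4 and 112 CPM in KMNTC and 71.8, 60.4, 64.0 and 162 in KM4A2cr, with the same libraries on top. *Gabarapl2* (GATE-16) had log2 fold changes of -0.08 in RPFs and -0.09 in total RNA.

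None of the 5 cargo receptors passed. *Sqstm1* (ENSMUSG00000015837.16) had 232, 236, 220 and 260 RPF CPM in KMNTC and 232, 253, 295 and 231 in KM4A2cr, and its log2 fold change was 0.09 (SE 0.14, adjusted p = 0.731 by edgeR). Its mRNA had 213, 222, 181 and 220 total RNA CPM in KMNTC and 220, 250, 275 and 268 in KM4A2cr. The mRNA was higher in 4 of 4 pairs without passing (log2 fold change 0.27, SE 0.14, adjusted p = 0.327 by edgeR), and translational efficiency was below 0 in 4 of 4 pairs (-0.18, SE 0.10, adjusted p = 0.404 by edgeR). *Nbr1* (ENSMUSG00000017119.21), a receptor that binds ubiquitin together with p62, had 46.8, 36.1, 32.7 and 87.7 RPF CPM in KMNTC and 51.9, 42.1, 41.2 and 101 in KM4A2cr. Footprints and mRNA were each higher in all 4 pairs, by 0.23 in RPFs (SE 0.12, adjusted p = 0.291 by edgeR) and 0.14 in total RNA (adjusted p = 0.577 by edgeR), and its replicate 4 values were far above the rest in both lines. *Calcoco1*, an adaptor for the endoplasmic reticulum and Golgi, had an RPF log2 fold change of -0.32 (SE 0.14, adjusted p = 0.213 by edgeR), below 0 in 4 of 4 pairs. *Optn* and *Tax1bp1*, ubiquitin-binding receptors that also act in mitophagy, had -0.08 and -0.01.

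The 4 mitophagy genes had log2 fold changes above 0 in RPFs and in total RNA, with medians of 0.28 and 0.06, but without replicate 4, or with library size alone, 3 of 4 did so in RPFs and 1 of 4 in total RNA, and 3 of 4 in RPFs with upper-quartile factors. In RPFs 1 of the 4 passed. *Bnip3* (ENSMUSG00000078566.9), a hypoxia-induced receptor that binds LC3 on the mitochondrial surface, had 61.0, 31.0, 34.2 and 41.1 RPF CPM in KMNTC and 78.1, 41.7, 52.3 and 50.6 in KM4A2cr. It was higher in KM4A2cr cells in each pair, by 0.36, 0.43, 0.61 and 0.30 on the log2 scale, which gave a log2 fold change of 0.43 (SE 0.12, adjusted p = 0.0858 by edgeR). Its total RNA CPM was 94.2, 32.2, 44.6 and 36.8 in KMNTC and 97.6, 43.1, 59.8 and 30.7 in KM4A2cr, with replicate 1 the highest in both lines and replicate 4 lower in KM4A2cr than in KMNTC. The mRNA change was 0.17 (SE 0.15, adjusted p = 0.594 by edgeR), and translational efficiency was above 0 in 4 of 4 pairs without passing (0.25, SE 0.12, adjusted p = 0.328 by edgeR). Without replicate 4 both kinds of library passed for *Bnip3*, with changes of 0.46 in RPFs (adjusted p = 0.0101) and 0.28 in total RNA (adjusted p = 0.0744, both by edgeR). *Pink1* (ENSMUSG00000028756.13), the kinase that marks damaged mitochondria, was scarce, with 85 footprints over the KMNTC libraries and 90 over the KM4A2cr libraries. Its RPF CPM was 2.90, 2.38, 1.92 and 3.15 in KMNTC and 3.74, 2.46, 3.37 and 4.04 in KM4A2cr, higher in each pair (log2 fold change 0.38, SE 0.24, adjusted p = 0.367 by edgeR). *Bnip3l* and *Fundc1* had RPF log2 fold changes of 0.04 and 0.18.

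*Tecpr1*, the tethering factor that joins autophagosomes to lysosomes, had footprints and mRNA on opposite sides of 0, at 0.20 and -0.11. Its translational efficiency was higher in KM4A2cr cells by 0.32, 0.28, 0.31 and 0.34 in the 4 pairs, but the fitted 0.31 (SE 0.11) did not pass (adjusted p = 0.144 by edgeR).

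**Figure D4:**
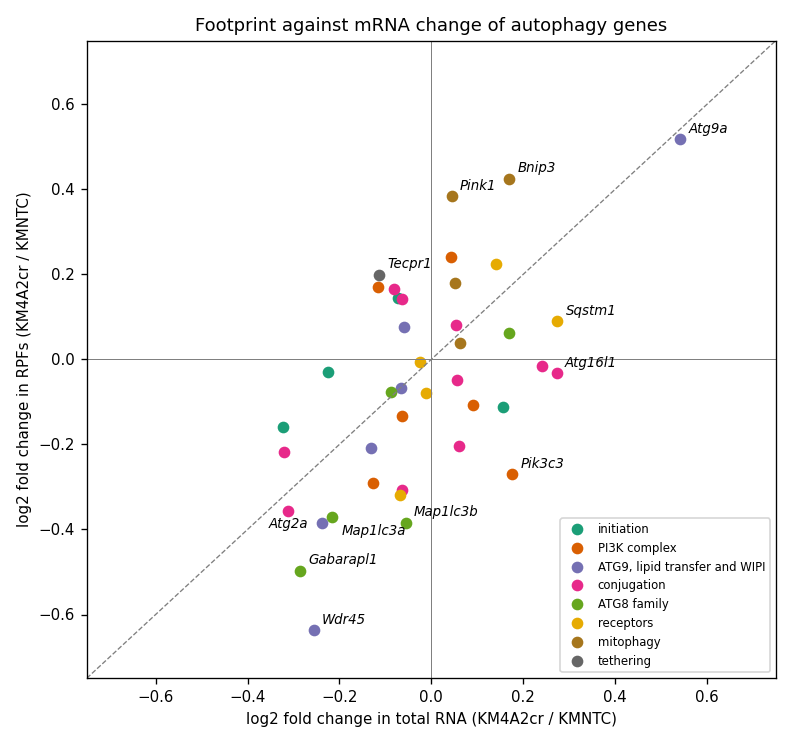
Log2 fold change (KM4A2cr over KMNTC, edgeR) in RPFs (y axis) against total RNA (x axis) for the 41 genes tested in both, coloured by role, with the line of equal change dashed. *Atg9a* lies on the line at 0.54 and 0.52, *Map1lc3b*, *Wdr45* and *Pik3c3* lie below it and *Bnip3*, *Pink1* and *Tecpr1* above it.

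Replicate 4 differed from the other replicates for many autophagy genes in both lines at once. Its RPF CPM lay above replicates 1 to 3 in both lines for 15 of 41 members and below them for 2, where 22% and 23.1% of all genes did so. In total RNA these counts were 17 and 2 of 42, beside 23.3% and 21.8% of all genes. The numbers depend on scaling, since with CPM from library size alone 6 members lay above and 7 below in RPFs (10.3% and 37.1% of all genes) and 7 above and 5 below in total RNA (13.6% and 32.7%). Under both scalings, RPFs of *Atg9a*, *Atg12*, *Gabarap*, *Nbr1*, *Fundc1* and *Tecpr1* were above in both lines and those of *Wipi2* and *Atg3* below. The excess of replicate 4 over the mean of the others was 1.65 on the log2 scale for *Atg9a* in KMNTC and 1.93 in KM4A2cr, and 0.81 and 1.66 for *Gabarap*. With TMM scaling, the median excess over the RPF members was 0.09 in KMNTC and 0.45 in KM4A2cr, beside 0.00 and -0.05 for all genes. In total RNA, with the same scaling, the median excess over the members was 0.14 in KMNTC and 0.50 in KM4A2cr, beside 0.02 and 0.01 for all genes. Whether this difference between the lines is particular to the members was not tested. *Cd68*, which encodes a lysosomal membrane protein and serves as a macrophage marker, was also highest in replicate 4 of both lines. It had 33.0, 38.3, 32.5 and 220 total RNA TPM in KMNTC and 62.9, 43.3, 37.3 and 154 in KM4A2cr. Its replicate 4 value was thus lower in KM4A2cr than in KMNTC. Of the other leukocyte markers, *Adgre1* and *Lyz2* were listed at 0 in every total RNA library, and *Ptprc* and *Csf1r* were at most at 0.67 and 0.52 TPM. In all RPF libraries together, *Adgre1* had 2 footprints and *Lyz2* 1. Why replicate 4 differed was not tested.

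**Figure D5:**
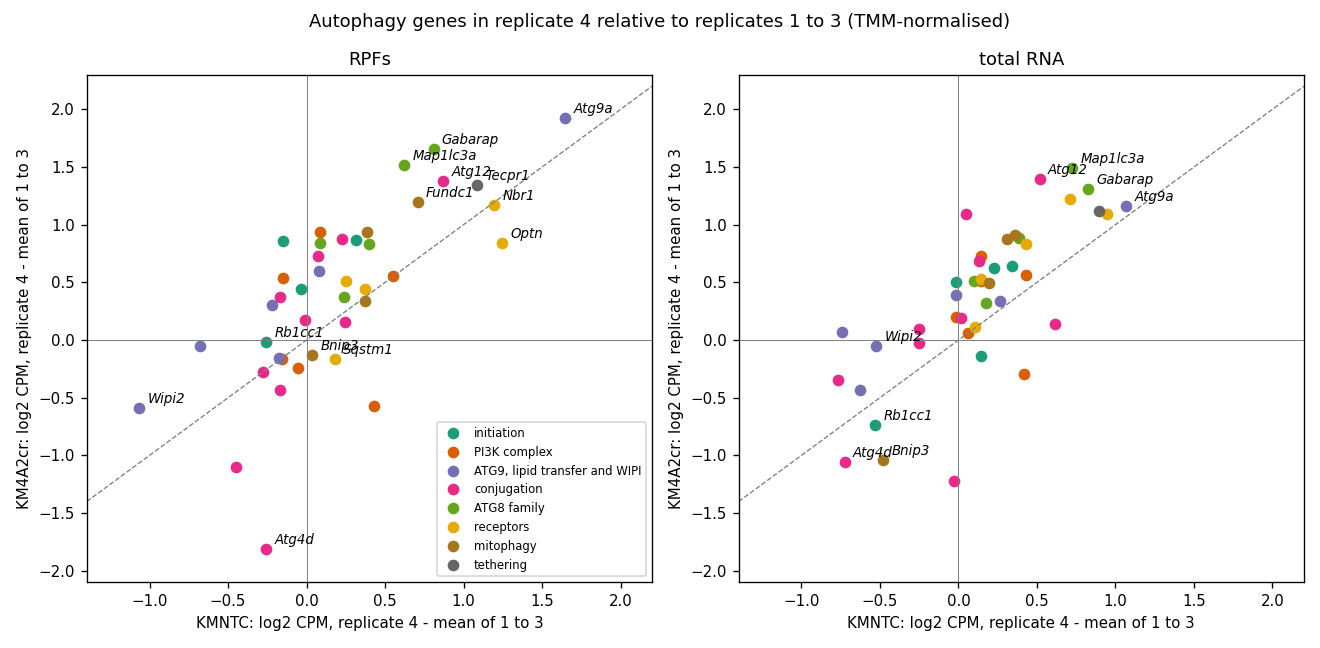
Log2 CPM of replicate 4 minus the mean of replicates 1 to 3 in KMNTC (x axis) and KM4A2cr (y axis) for autophagy genes in RPFs (left) and total RNA (right), with the line of equal values dashed. In RPFs *Atg9a* lies at 1.65 and 1.93 and *Wipi2* below 0 in both lines. The medians over the RPF members are 0.09 in KMNTC and 0.45 in KM4A2cr, beside 0.00 and -0.05 for all genes.

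When replicate 4 was left out, 11 of 42 members passed in RPFs (26.2%), 7 of 42 in total RNA (16.7%) and 2 of 42 in translational efficiency (4.76%). Of all genes 33.4% then passed in RPFs (19.1% higher and 14.3% lower), 29.8% in total RNA (17.8% and 12%) and 6.68% in translational efficiency (4.1% and 2.58%). In RPFs 4.76% of the members were higher and 21.4% lower, so their share lay below that of all genes for higher values and above it for lower ones. In RPFs the 4 genes named above remained, and *Ambra1* (-0.49), *Atg2a* (-0.39), *Atg2b* (-0.34), *Atg7* (-0.46), *Map1lc3a* (-0.60), *Map1lc3b* (-0.57) and *Calcoco1* (-0.37) were called as well, each of them lower in KM4A2cr cells. In total RNA *Atg9a*, *Ulk2* (0.33), *Sqstm1* (0.26) and *Bnip3* were higher and *Atg13* (-0.42), *Map1lc3a* (-0.44) and *Gabarapl1* lower. In translational efficiency *Atg3* (0.41) was higher and *Map1lc3b* (-0.40) lower. Leaving out replicate 1, 2 or 3 instead left 0 members called in each of the 3 comparisons by edgeR. Few of all genes then passed, 2.27%, 1.2% and 0.31% in RPFs, 1.91%, 1.3% and 0.577% in total RNA and 0.101%, 0.412% and 0.149% in translational efficiency. At an unadjusted p under 0.05 by edgeR were 4 to 6 members in RPFs, 1 to 2 in total RNA and 4 to 6 in translational efficiency. For all genes these counts were 1310 to 1736, 1044 to 1480 and 912 to 1107.

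The scaling moved the direction of the calls, among all genes as among the members. With library size alone, which shifted the median of all genes to -0.15 in RPFs, 4 members passed and each was lower (*Atg2a*, *Wdr45*, *Map1lc3b* and *Gabarapl1*), and *Atg9a* and *Bnip3* did not pass. These are 9.76% of the members, beside 15.7% of all genes, of which 482 were higher and 1137 lower. With upper-quartile factors *Atg9a* was higher and *Atg2a*, *Wdr45* and *Gabarapl1* lower. These are again 9.76% of the members, beside 9.7% of all genes, with 534 higher and 464 lower. *Wdr45* and *Gabarapl1* were called lower under each of the 4 scalings tried, and the RPF changes of *Atg9a* and *Bnip3* stayed above 0 under each of them.

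A further 43 genes that act around the core machinery were examined as a list outside the members. In RPFs 40 were tested, of which 3 were higher and 2 lower (12.5%, beside 10.3% of all genes), in total RNA 1 of 41 was higher and 1 lower (4.88%, beside 6.13%), and in translational efficiency 1 of 40 was higher and 1 lower (5%, beside 2.91%). *Stbd1*, a receptor for glycogen, had 3.80, 8.93, 9.18 and 27.5 RPF CPM in KMNTC and 5.92, 25.1, 30.2 and 63.0 in KM4A2cr. It rose in 4 of 4 pairs, by 1.30 in RPFs (SE 0.18, adjusted p = 0.00859) and 1.30 in total RNA (SE 0.20, adjusted p = 0.00838, both by edgeR), a larger change than that of any member. *Ykt6*, a SNARE of autophagosome fusion, rose in RPFs by 0.51 (adjusted p = 0.0679), and *Tex264*, a receptor for the endoplasmic reticulum, by 0.48 (adjusted p = 0.0985, higher in 3 of 4 pairs, both by edgeR). *Vps39*, a subunit of the HOPS tethering complex, fell in RPFs by 0.52 (adjusted p = 0.0811) and *Plekhm1*, an adaptor that binds HOPS and LC3, by 0.48 (adjusted p = 0.0928, both by edgeR). *Vps33a*, also of HOPS, fell in total RNA by 0.53 (adjusted p = 0.0639 by edgeR). In translational efficiency *Rragc*, a GTPase that carries nutrient signals to mTORC1 and TFEB, was higher by 0.44 (adjusted p = 0.0425), and *Epg5*, a tether of autophagosomes, was lower with -0.52 (adjusted p = 0.0497, both by edgeR). *Vps39* lies on chromosome 2 with the members named above.

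Promoter sequences are shown for the genes called in RPFs, since for *Atg9a* the mRNA changed as well, and for the other 3 the mRNA change did not pass. RefSeq (GRCm38.p6) gives a promoter, from 250 bases before to 50 after the start, for 35 of the 42 members. The 120 bases before the start, 5′ to 3′ on the gene's strand, are those of *Atg9a* at chr1:75192011-75192130 (minus strand), *Bnip3* at chr7:138909507-138909626 (minus), *Wdr45* at chrX:7722807-7722926 (plus) and *Gabarapl1* at chr6:129533072-129533191 (plus), with the E-box CACGTG in capitals.
Atg9a: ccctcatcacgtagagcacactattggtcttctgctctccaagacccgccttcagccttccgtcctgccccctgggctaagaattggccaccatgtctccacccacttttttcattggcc
Bnip3: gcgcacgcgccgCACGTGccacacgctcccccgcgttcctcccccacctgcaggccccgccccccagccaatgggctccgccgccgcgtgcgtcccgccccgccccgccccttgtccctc
Wdr45: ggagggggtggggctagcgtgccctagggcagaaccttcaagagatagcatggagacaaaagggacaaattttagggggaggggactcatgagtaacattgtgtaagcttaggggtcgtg
Gabarapl1: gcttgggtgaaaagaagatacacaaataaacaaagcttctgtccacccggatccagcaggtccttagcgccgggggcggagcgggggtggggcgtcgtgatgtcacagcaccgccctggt
The *Bnip3* stretch was the richest in GC at 80.8%, beside 55.8% for *Atg9a*, 53.3% for *Wdr45* and 60.0% for *Gabarapl1*.

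The E-box CACGTG reads the same on both strands and is bound by MYC and by TFEB, and TCACGTGA is the centre of the element through which TFEB acts on lysosomal and autophagy genes. CACGTG was found in 5 of the 35 member promoters (14.3%), those of *Atg3*, *Atg5*, *Atg7*, *Atg14* and *Bnip3*, and in 8.09% of the promoters of 27025 genes. TCACGTGA, each copy of which contains the shorter motif, was found in that of *Atg3* (2.86% of the 35) and in 1.12% of all. The sites are shown in 30 bases each, 5′ to 3′ on the gene's strand with CACGTG in capitals, for *Atg3* at chr16:45158723-45158752 and chr16:45158746-45158775, *Atg5* at chr10:44268313-44268342, *Atg7* at chr6:114670952-114670981 (all plus strand) and *Atg14* at chr14:47568418-47568447 (minus).
Atg3, first site: gcctccttttgtCACGTGtcctgggagagt
Atg3, second site: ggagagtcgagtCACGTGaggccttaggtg
Atg5: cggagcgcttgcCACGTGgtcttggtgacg
Atg7: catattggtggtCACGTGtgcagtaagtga
Atg14: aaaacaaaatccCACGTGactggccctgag
Of these 5 genes only *Bnip3* passed in RPFs, and the other 4 had RPF log2 fold changes of 0.17 (*Atg3*), 0.14 (*Atg5*), -0.31 (*Atg7*) and -0.11 (*Atg14*). A match is a feature of the letters and was not tested as a binding site.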

How the data were processed

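RPFs had been trimmed with cutadapt 1.18, aligned with BBmap to 1 transcript per gene (GENCODE vM27) and collapsed with UMI-tools 1.0.1, and the authors deposited them as counts over coding sequences without the first 20 and last 10 codons. Total RNA was deposited per isoform, in expected counts and TPM, from RSEM 1.3.3 after Bowtie2 2.3.5.1. Here isoforms were summed per gene, expected counts were rounded, and transcripts missing from an RPF table were set to 0.

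Genes that passed filterByExpr were TMM-normalised and tested with glmQLFTest in edgeR 4.0.16 (limma 3.58.1, R 4.3.3) for the line, blocked by replicate number, in RPFs and total RNA separately. For translational efficiency, 1 model over 16 libraries held a term per lysate and tested whether the line effect differed between RPFs and total RNA. P-values were adjusted by Benjamini-Hochberg over all genes tested (threshold 0.1). CPM were scaled with the TMM factors (prior count 2 on the log2 scale). As each kind of library was scaled on its own, a change of all footprints or all mRNA is not visible. The terms of the study's DESeq2 model are not given in the sources used here. The block follows its batch-corrected principal component analysis, and same-numbered libraries deviated together from their line means (correlations of 0.575 to 0.782), so the numbers pair the libraries.

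The members, gene lists and roles were chosen with earlier results of these data known. Values in every library are given for members past the threshold and for 11 textbook members, and those of *Atg2a* and *Ulk2* were added after they were seen. Genes of the other list are named where they passed. Alternatives were a fit without the block, DESeq2 1.42.0, RLE, upper-quartile and library-size scaling, looser and stricter filters, a threshold of 0.05, leaving out each replicate and, for mRNA, the RPF isoform alone. Each test was first tried on simulated data. A further allele of the tumour model is not reported here.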

Additional observations from a re-analysis of the deposited data

Results flagged for a closer look

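Of 52 groups of 4 libraries examined for the named members, 9 held a library set apart from the other 3 by Dixon's test, and each of the 9 was replicate 4. Chance sets apart about 1 in 20 groups, and libraries of 1 replicate are shared by all genes, so the 9 are not independent. *Atg9a* had 56.2 RPF CPM in KMNTC replicate 4, where the median of the other 3 was 19.3, and 92.6 in KM4A2cr replicate 4, where it was 26.5. *Gabarap* had 171 RPF CPM in KMNTC replicate 4 (median of the others 100) and 277 in KM4A2cr replicate 4 (87.8), with 162 total RNA CPM in the latter lysate (64.0). *Map1lc3b* had 145 RPF CPM in KM4A2cr replicate 4 (79.4). In total RNA of KM4A2cr replicate 4, *Gabarapl1* had 53.9 CPM (28.5) and *Nbr1* 181 CPM (86.2). *Atg5* was set apart in the other direction, with 42.7 total RNA CPM in KMNTC replicate 4 (50.7). What made replicate 4 differ was not tested.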

How the results depend on the processing

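Without the replicate block, which ignores the pairing of libraries, 0 members passed in RPFs, 0 in total RNA and 0 in translational efficiency (edgeR), with 1, 0 and 0 at an unadjusted p under 0.05, and 0 genes passed overall. DESeq2 called 2 members in RPFs (*Atg9a* and *Wdr45*, 4.88%), beside 9.31% of all genes. A threshold of 0.05 left 0 in RPFs, beside 4.26% of all genes. Library size alone gave 3 calls in total RNA (7.14%, beside 10.4% of all genes). In translational efficiency 1 member (*Map1lc3b*, lower) passed with no filter on low counts, with a mean log2 CPM of at least 3, and with the RPF isoform only. Of all genes 3.45%, 3.58% and 2.59% passed in these 3 settings. Leaving out each replicate in turn gave 0 to 11 calls in RPFs, 0 to 7 in total RNA and 0 to 2 in translational efficiency, where the members' median ran from -0.0725 to 0.00832, the highest counts being those without replicate 4. Over the alternatives *Atg9a* passed in RPFs in 6 of 12, *Bnip3* in 3, *Wdr45* in 7 and *Gabarapl1* in 6, and *Atg9a* in total RNA in 9 of 13, with the direction kept in each.

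Some small changes turned sign. With library size alone *Gabarap* (-0.068) and *Sqstm1* (-0.0393) did so in RPFs, *Becn1* (-0.11), *Nbr1* (-0.0173) and *Pink1* (-0.11) in total RNA and *Atg9a* (0.013) in translational efficiency. Without the block, *Atg7* total RNA was 0.0044 and *Atg9a* translational efficiency 0.0281. With the RPF isoform only, total RNA of *Atg7* was 0.27 and of *Map1lc3b* 0.0227. Over the replicates left out, log2 fold changes ran from -0.33 to 0.15 for *Ulk1* and -0.15 to 0.19 for *Gabarap* in RPFs, from -0.0327 to 0.118 for *Becn1*, -0.147 to 0.0705 for *Atg5*, -0.36 to 0.12 for *Atg7* and -0.13 to 0.21 for *Pink1* in total RNA, and from -0.0679 to 0.0242 for *Atg9a* in translational efficiency. The causes were not tested.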
